A study of Mus musculus with 3 samples.

Results

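The integrated stress response is the programme with which a cell meets a shortage of amino acids or another strain on protein synthesis. Kinases phosphorylate the initiation factor eIF2, general translation slows, and the mRNA of the transcription factor ATF4 is translated more. ATF4, often with a partner of the C/EBP family, then switches on amino acid transporters, enzymes that make serine, glycine, asparagine, proline and one-carbon units, and feedback inhibitors such as TRIB3. T cells that leave rest draw on the same genes, since growth and division need amino acids and nucleotides. Because ATF4 is controlled largely in translation, the amount of its mRNA is not a measure of its protein.

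The genes described here are 38 members of this programme, listed by symbol. Only genes found among the 17121 of the deposited table were listed. The list was chosen with earlier results of these data known. Shares and medians of the members below therefore describe the list and are not independent observations. By role the 38 genes are 7 regulators of the stress response, 7 of its effectors, 5 enzymes of serine and glycine synthesis, 4 enzymes of folate one-carbon metabolism, 6 enzymes of asparagine, alanine, proline and cysteine metabolism, and 9 amino acid transporters.

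The cells were CD8+ T lymphocytes, which kill infected cells, isolated from spleen and lymph node of wild-type mice and cultured for 3 days. Every culture received 1 µg/ml of antibodies that engage CD3, a part of the T cell receptor (TCR), and the co-stimulatory molecule CD28. The group young TCR, of mice aged 6 weeks, received nothing else. The group young TRM, of the same age, was also given 20 ng/ml of IL-15 and 5 ng/ml of TGF-beta, which promote features of tissue-resident memory cells (TRM). The group aged TRM was given both cytokines too, with cells of mice aged 18 months. All 3 groups were thus stimulated through the receptor, and resting cells and aged cells without cytokines were not analysed here. How many mice were pooled was not stated.

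Each group was 1 sample, deposited as 2 numbered columns. What the numbers mean was not stated, and the columns were taken as repeated measurements of the sample. No difference was therefore tested against the variation between mice or cultures, and no p-value is given. The samples held 36021887 to 40385477 reads. Levels are given as CPM, the reads of a gene in 1000000 reads after trimmed-mean (TMM) scaling, and levels of different genes are compared only as TPM, which divides by transcript length. Here "rose" and "fell" are used of a gene whose CPM, after adding a pseudocount of 1, gave a log2 ratio of 1 or more in size, with a 95% interval of the fold (Clopper-Pearson, on the split of reads) that left out 1. Genes under 1 CPM in both samples compared were not tested. Intervals cover counting error only, since reads are not independent molecules. Folds are ratios of CPM without the pseudocount. In bulk RNA, fewer cells that express a gene and less RNA of that gene per cell cannot be told apart.

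The labelled cell type was checked by its markers. Cd3e had 302 CPM in young TCR, 380 CPM in young TRM and 364 CPM in aged TRM, and Cd8a had 747, 1822 and 1632 CPM. Of the 7 tested CD8+ T cell genes, 6 had a log2 ratio above 0 with the cytokines, and Cd8a rose. Cd2 was below 0, at 223, 189 and 122 CPM. None of the 7 rose or fell with age, where 5 were below 0. Markers of other cells were also present. The summed level of 7 B and plasma cell genes was 44.3 CPM in young TCR, 16.8 CPM in young TRM and 21.8 CPM in aged TRM. In that list 5 of 6 tested genes fell from young TCR to young TRM, and 2 (Ms4a1 and Pax5) rose from young TRM to aged TRM. The genes that rose or fell were at most at 7.40 CPM, and Cd79b, which neither rose nor fell, had 15.5, 12.9 and 11.7 CPM. Of 6 NK cell genes, 4 rose with the cytokines and Eomes fell, and Ncr1, a defining gene, had 0.0493, 2.19 and 1.18 CPM. Summed, the NK list had 365, 279 and 404 CPM, most of it from Klrk1 and Eomes, which activated CD8+ T cells also express. The 4 CD4 T cell genes summed to 31.0, 54.2 and 30.1 CPM, with Cd4 at 10.5, 12.4 and 11.6 CPM. In that list Foxp3 rose with the cytokines and fell with age, at 1.95, 33.6 and 3.71 CPM, and Zbtb7b fell with the cytokines, at 18.1, 8.03 and 14.3 CPM. Myeloid genes summed to 25.9, 40.7 and 26.2 CPM, and Adgre1, a macrophage marker, had 1, 0 and 2 reads. Of the 4 myeloid genes tested, Mpeg1 rose with the cytokines, at 4.22, 28.7 and 15.4 CPM, and Itgax fell, at 8.63, 3.55 and 4.21 CPM. The part of these cells in the results below was not tested.

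Promoter sequences were examined first, because ATF4 with a C/EBP partner is known to bind a composite element. RefSeq promoters of assembly GRCm38.p6, from 250 bases before the start site to 50 after it, were available for 32 of the members. They were searched on both strands for the letters TGATGNAA, where N is any base. The letters were found in 8 of these 32 members (25%), against 268 of 9513 tested genes with a promoter sequence (2.82%). Counted by promoter, they were in 8 of 38 sequences of members (21.1%) and 1304 of all 32851 of the same length (3.97%). Many of the members are known as ATF4 targets from work on just such elements. The share among members therefore describes the list and is not an independent observation. A match is not evidence of binding, and the absence of the letters says only that they are not in this window.

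Of the 8 genes, Chac1, Nupr1 and Trib3 rose with the cytokines, where 4.18% of tested genes and 5.34% of those with the letters rose. Whether the letters had a part in this was not tested. The stretches around the matches are shown for all 8 genes. All are written 5′ to 3′ on the strand of the gene, with the matched letters in capitals. TTNCATCA in capitals is the same motif read on the other strand.
Chac1: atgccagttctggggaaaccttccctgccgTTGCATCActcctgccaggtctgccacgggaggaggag
Nupr1: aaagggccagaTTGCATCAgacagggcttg
Trib3: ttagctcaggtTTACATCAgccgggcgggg
Asns: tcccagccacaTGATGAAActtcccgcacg
Slc7a11: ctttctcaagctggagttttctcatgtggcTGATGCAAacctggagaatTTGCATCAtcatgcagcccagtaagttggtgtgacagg
Pycr1: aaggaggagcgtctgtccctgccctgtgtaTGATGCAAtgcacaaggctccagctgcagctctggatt
Slc1a4: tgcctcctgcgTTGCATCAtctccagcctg
Vldlr: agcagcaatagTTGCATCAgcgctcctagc

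In Chac1 (chr2:119351019-119351086, plus strand) the match began 193 bases before the start site, and in Nupr1 (chr7:126625562-126625591, minus strand) 110 bases before it. The Asns match (chr6:7693214-7693243, minus strand) began 23 bases before the start and was TGATGAAA. The Trib3 match (chr2:152344028-152344057, minus strand) began 14 bases after the start and was TGATGTAA when read on the opposite strand. Slc7a11 (chr3:50443623-50443709, minus strand) was the member with more than 1 match, facing each other 66 and 47 bases before the start, a number of matches that 7 of 9513 tested genes had, itself included. The matches of Pycr1 (chr11:120643814-120643881, minus strand), Slc1a4 (chr11:20332699-20332728, minus strand) and Vldlr (chr19:27216809-27216838, plus strand) began 103, 4 and 200 bases before the start. For Vldlr this was the start within the promoter sequence chr19:27216770-27217069, and that at chr19:27216234-27216533 had no match.

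Among the members with a promoter sequence, the 8 with the letters had a median log2 ratio of 0.72 in the cytokine comparison, and the 23 tested members without them had 0.30. Over all tested genes the same medians were 0.06 for 262 genes with the letters and 0.01 for 9119 without. Of those 262 genes 5.34% rose, against 3.90% of the genes without the letters. In the age comparison no member with the letters rose or fell, where 2.29% of all tested genes with the letters rose and 2.67% fell. The median of these members was 0.12, beside 0.065 for the 23 tested members without the letters. Cth and Aldh1l2, which rose with age, had no promoter sequence available and were not searched.

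The first comparison set young TRM against young TCR and asks what the added cytokines did. Nupr1, Slc6a9, Chac1, Trib3 and Cebpb rose, and no member fell. These were 5 of 37 tested members, where 4.18% of 11588 tested genes rose and 3.6% fell. Cbs, the member below 1 CPM in all samples, was not tested. Slc6a9 takes up glycine, and the other genes that rose encode regulators and a glutathione-degrading enzyme of the stress response. The median log2 ratio of the 37 members was 0.37, beside 0.02 for all tested genes, and 26 of 37 lay above 0, beside 51.9% of all tested genes. In all 4 pairings of the columns, 24 members were above 0, beside 39.2% of tested genes, and 10 were below 0, beside 39.7%.

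**Figure D1:**
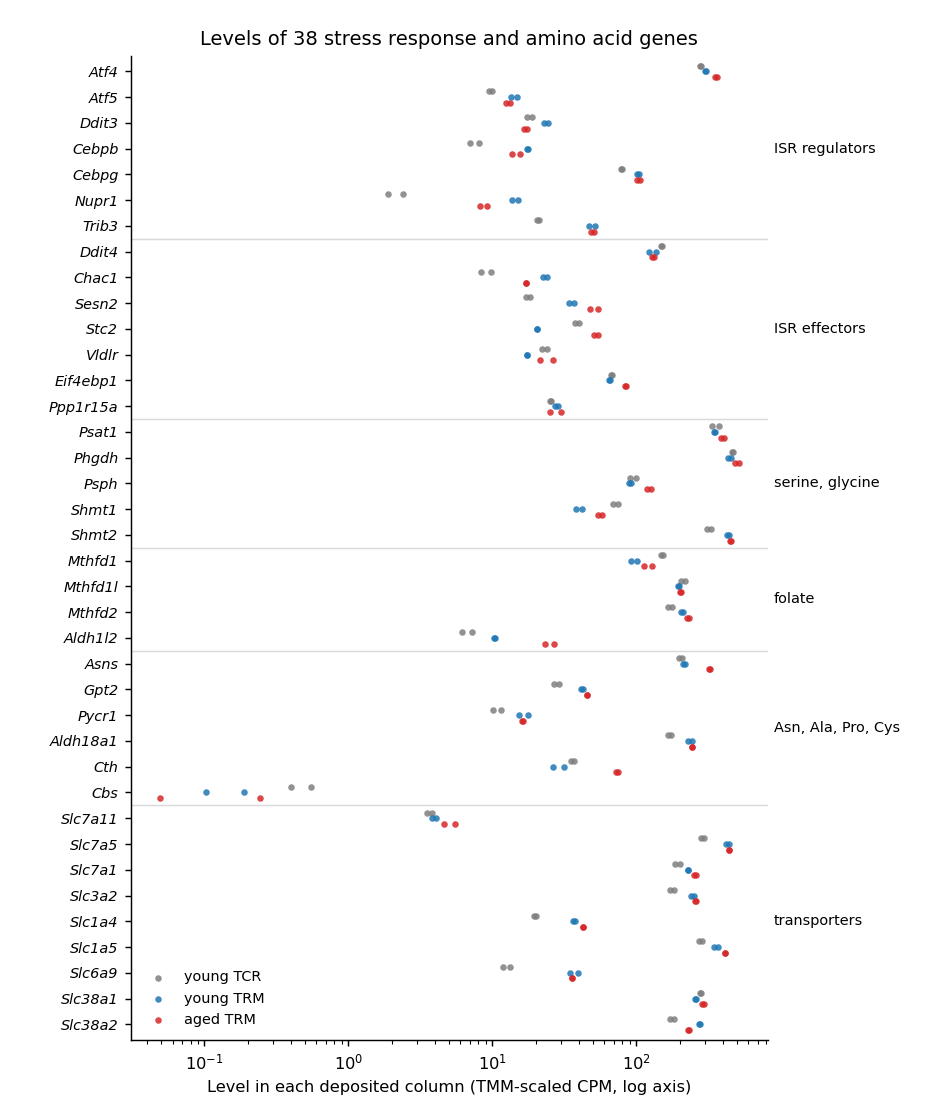
Level of each of the 38 genes in each deposited column, in TMM-scaled CPM on a log axis, grouped by role; grey is young TCR, blue young TRM and red aged TRM, with 2 points per sample. Within their own rows, Nupr1, Trib3, Chac1 and Slc6a9 lie farthest to the left in young TCR. Stc2, Cth and Aldh1l2 lie farthest to the right of their rows in aged TRM.

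The second comparison, at the same cytokines, was of aged TRM with young TRM. Stc2, Cth and Aldh1l2 rose, and no member fell. These were 3 of 37 tested members, where 2.25% of 11575 tested genes rose and 1.15% fell. The median log2 ratio was 0.15, beside -0.01 for all tested genes, and 28 of 37 lay above 0, beside 49.2% of all tested genes. Such a shift was not particular to the members. The lists of related genes described below had medians from 0.09 to 0.17 with age, except other amino acid transporters (0.02). In all 4 pairings 24 members were above 0, beside 35.9% of tested genes, and 6 were below 0, beside 38%. Both comparisons use the young TRM sample, so a high or a low value there moves a gene in opposite directions in them.

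**Figure D2:**
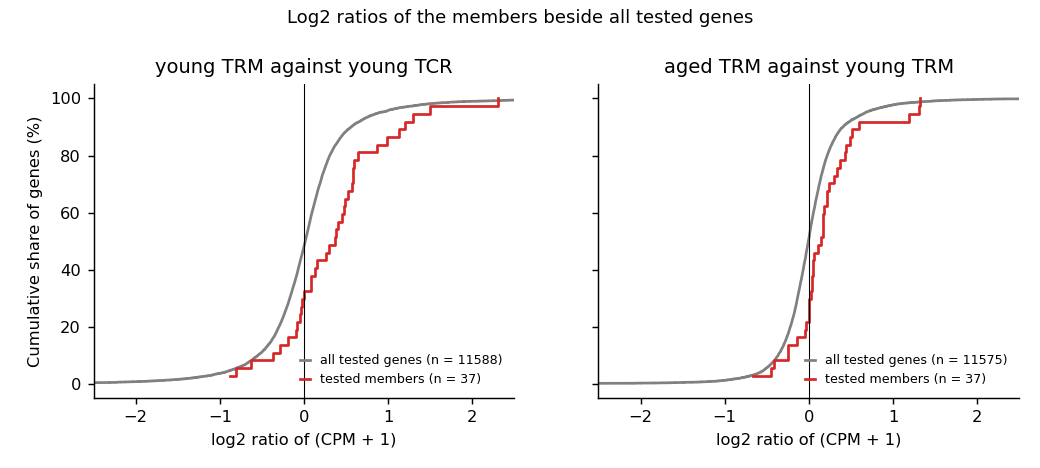
Cumulative share of genes, in percent, by log2 ratio of (CPM + 1) for all tested genes (grey) and the 37 tested members (red) in each comparison. The red line lies to the right of the grey one over most of its length, with medians of 0.37 against 0.02 on the left and 0.15 against -0.01 on the right.

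Together the 38 genes held 0.451% of the reads in young TCR, 0.503% in young TRM and 0.580% in aged TRM. Of the 38, 24 had their highest CPM in aged TRM, beside 26.9% of tested genes, and 25 their lowest in young TCR, beside 39.3%. Among the 37 members of at least 50 reads in every sample, the median difference between the columns of a sample was 1.06-fold in young TCR, 1.05-fold in young TRM and 1.04-fold in aged TRM, and the largest was 1.27-fold.

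Atf4, the factor at the head of the programme, was the second most abundant member per transcript length, with 363 TPM in young TCR, 394 TPM in young TRM and 480 TPM in aged TRM. Its columns read 283 and 277 CPM in young TCR, 300 and 305 CPM in young TRM, and 351 and 367 CPM in aged TRM, so the samples did not overlap and were ordered in the same way on both scales. The log2 ratios were 0.13 with the cytokines and 0.25 with age, both short of the threshold. Atf5, a relative of ATF4 that is also controlled in translation, had 9.62, 14.3 and 12.9 CPM.

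Nupr1, a small stress-induced chromatin protein, had the largest log2 ratio of the 38 genes. Its columns read 2.39 and 1.89 CPM in young TCR, 15.1 and 13.7 CPM in young TRM, and 8.24 and 9.15 CPM in aged TRM. It rose 6.78-fold with the cytokines (interval 5.39 to 8.63, log2 ratio 2.30), from 86 to 507 reads. The aged sample lay between the others in every column, and its log2 ratio against young TRM was -0.66, below 0 in all pairings but not past the threshold. In GRCm38.p6, Nupr1 spans positions 126623246 to 126625470 of chromosome 7.

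Trib3 encodes a pseudokinase that ATF4 induces and that in turn restrains ATF4. It had 21.1 and 20.6 CPM in the columns of young TCR, 51.4 and 46.7 CPM in young TRM, and 48.5 and 50.5 CPM in aged TRM. It rose 2.37-fold with the cytokines (2.18 to 2.58). The columns of the TRM samples overlapped, with a log2 ratio of 0.02 between ages. Trib3 lies on chromosome 2, positions 152337425 to 152344060.

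Cebpb, a C/EBP factor that pairs with ATF4, had 6.98 and 8.14 CPM in young TCR, 17.7 and 17.4 CPM in young TRM, and 15.5 and 13.7 CPM in aged TRM. It rose 2.35-fold with the cytokines (2.04 to 2.7, log2 ratio 1.13), and this call ended with a pseudocount of 5 (0.85). Cebpb lies on chromosome 2, positions 167688915 to 167690432, where exons of Tmem189 on the opposite strand cover 20.7% of its exon bases. Whether reads were counted by strand was not stated, so reads of overlapping genes may be shared. Tmem189 had 56.2, 62.9 and 68.8 CPM. Cebpg, which forms dimers with ATF4, had 78.4, 104 and 104 CPM and a log2 ratio of 0.40 in the cytokine comparison. Per transcript length it was more abundant than Cebpb, with 32.7, 43.0 and 44.5 TPM against 9.9, 23.1 and 19.9 TPM.

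Ddit3, which encodes the stress factor CHOP, had 18.7 and 17.5 CPM in the columns of young TCR, 22.8 and 24.2 CPM in young TRM, and 17.5 and 16.6 CPM in aged TRM. Young TRM was the highest and did not overlap with either other sample, at log2 ratios of 0.38 and -0.44, both inside the threshold. Counted together, 3 of the 7 regulators rose with the cytokines, beside 4.18% of tested genes, and none with age, beside 2.25%. All 7 had a log2 ratio above 0 in the first comparison, beside 51.9% of tested genes, with a median of 0.53. In the second the median was -0.14. In all column pairings 4 of 7 were below 0, Nupr1, Ddit3, Cebpb and Atf5, beside 38% of tested genes. Atf4 was above 0 in all of them, beside 35.9%.

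Of the 7 effectors, Chac1 rose with the cytokines, beside 4.18% of tested genes, and Stc2 with age, beside 2.25%. Chac1 encodes an enzyme that breaks down glutathione. It had 9.72 and 8.34 CPM in young TCR, 22.4 and 24.1 CPM in young TRM, and 17.3 and 17.2 CPM in aged TRM. It rose 2.62-fold (2.31 to 2.97), and aged TRM lay between the other samples with a log2 ratio of -0.42 against young TRM. Chac1 lies on chromosome 2, positions 119351242 to 119354326.

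Stc2, a secreted glycoprotein induced in the stress response, had 40.3 and 37.4 CPM in young TCR, 20.3 and 20.6 CPM in young TRM, and 54.1 and 50.7 CPM in aged TRM. Young TRM was thus the lowest sample and aged TRM the highest, with no overlap. Stc2 rose 2.56-fold from young TRM to aged TRM (2.35 to 2.79, log2 ratio 1.32). Its log2 ratio with the cytokines was -0.88, short of the threshold. Stc2 lies on chromosome 11, positions 31359441 to 31370061. The B and plasma cell list summed to 44.3 CPM in young TCR, 16.8 CPM in young TRM and 21.8 CPM in aged TRM. Young TRM was thus lowest for the list too, but its highest sample was young TCR. The part of these cells in the Stc2 result was not tested.

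Sesn2, an inhibitor of the growth kinase complex mTORC1 and a leucine sensor, lay just inside the threshold. It had 17.1 and 18.2 CPM in young TCR, 36.9 and 34.2 CPM in young TRM, and 47.8 and 54.1 CPM in aged TRM. Its log2 ratio of 0.99 with the cytokines passed the threshold with column 1 alone (1.07), and the ratio with age was 0.51. The samples were ordered young TCR, young TRM, aged TRM without overlap. Eif4ebp1, which encodes a translation repressor under mTORC1, had 66.4, 65.5 and 84.8 CPM, so that the young samples were alike and aged TRM was higher, at a log2 ratio of 0.37.

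Ddit4, another mTORC1 inhibitor, had 150, 131 and 131 CPM. Ppp1r15a, which encodes the GADD34 subunit that directs dephosphorylation of eIF2, had 25.1, 28.1 and 27.5 CPM, and the aged columns of 25 and 29.8 CPM spanned both young samples. Vldlr, a lipoprotein receptor, had 22.8, 17.4 and 24.1 CPM, with log2 ratios of -0.37 and 0.45. The effectors thus went both ways with the cytokines, with 3 above 0 and 4 below, and a median of -0.02.

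**Figure D3:**
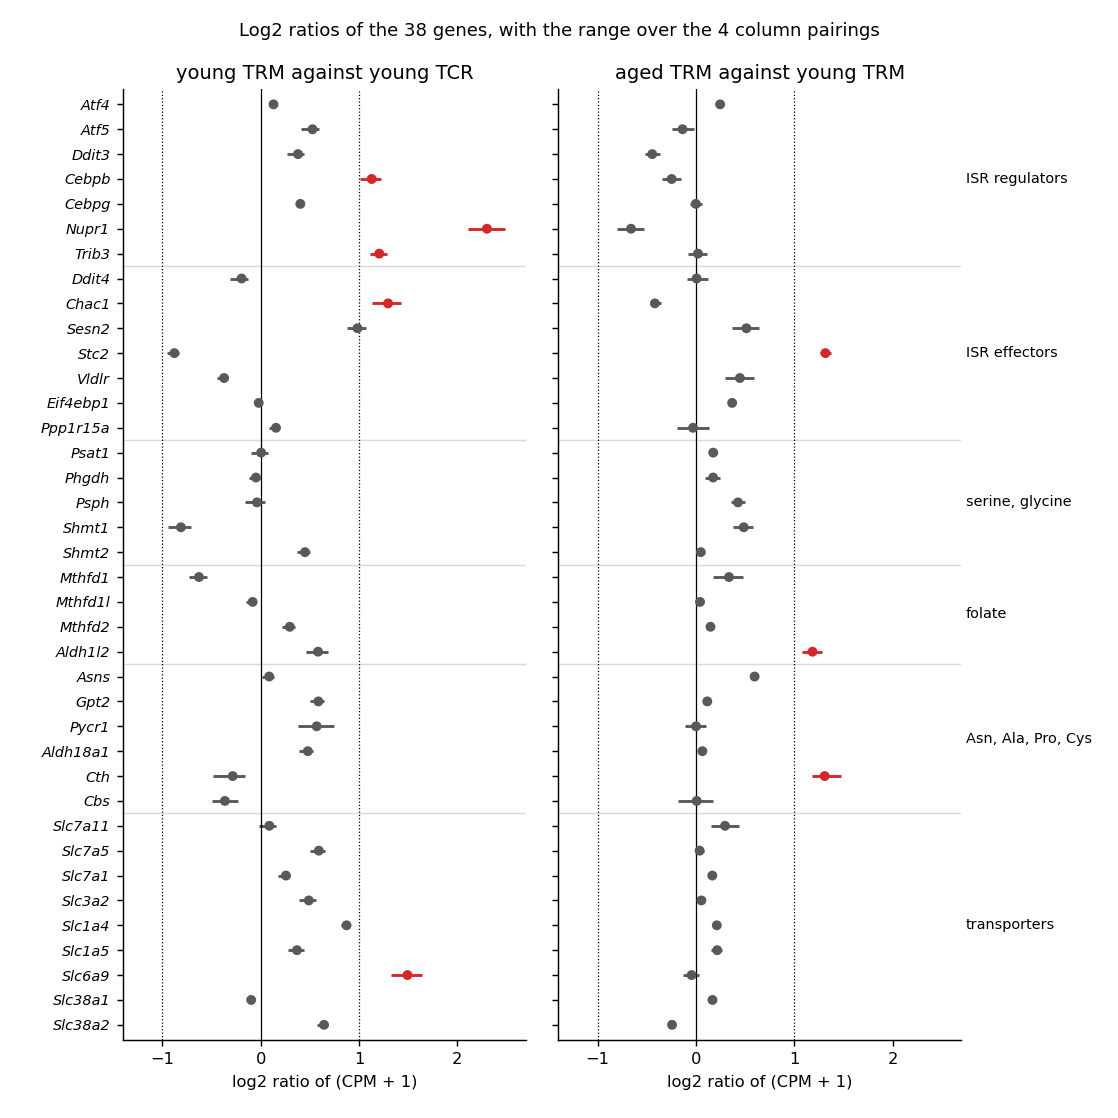
Log2 ratio of (CPM + 1) for the 38 genes in each comparison; points are the summed columns, bars the range over the 4 pairings of columns, dotted lines the threshold of 1 and red the genes that rose. Nupr1 reaches 2.30 on the left, and Stc2, Cth and Aldh1l2 alone pass the right-hand threshold in the age comparison.

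Serine is made from a glycolytic intermediate by PHGDH, PSAT1 and PSPH in turn, and SHMT enzymes then split it into glycine and a one-carbon unit. None of the 5 genes of this group rose or fell in either comparison. Phgdh was the most abundant of the 38 per transcript length, with 491, 473 and 551 TPM, and the log2 ratios of its CPM were -0.05 and 0.17. Psat1 had 352, 353 and 399 CPM, and the columns of young TCR, at 375 and 335 CPM, enclosed those of young TRM. Psph had 93.8, 91.4 and 123 CPM, with a log2 ratio of 0.43 with age. Exons of Cct6a on the opposite strand cover 10.4% of the exon bases of Psph. Cct6a had 493, 336 and 419 CPM, and its part in the Psph values was not tested. With age all 5 genes of the group were above 0 in every column pairing, beside 35.9% of tested genes, by a median of 0.17.

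The SHMT genes differed in direction with the cytokines. Shmt1, the cytosolic enzyme, had 74.5 and 68.7 CPM in young TCR, 41.7 and 38.4 CPM in young TRM, and 54.4 and 58.0 CPM in aged TRM. Its log2 ratio of -0.81 with the cytokines was short of the threshold, and aged TRM lay between the young samples. Shmt2, the mitochondrial enzyme, had 332 and 312 CPM in young TCR, 443 and 429 CPM in young TRM, and 445 and 455 CPM in aged TRM, a log2 ratio of 0.45 with the cytokines. Per transcript length, Shmt2 was 4.02 times Shmt1 in young TCR, 9.72 times in young TRM and 7.16 times in aged TRM. The columns of the samples did not overlap in this ratio, the nearest being 9.49 in young TRM and 7.32 in aged TRM.

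The folate enzymes pass the one-carbon unit on. Mthfd1, the cytosolic enzyme with several activities, had 153 and 148 CPM in young TCR, 101 and 91.7 CPM in young TRM, and 114 and 128 CPM in aged TRM, with log2 ratios of -0.63 and 0.34. Mthfd2, which oxidises the unit in mitochondria, had 170, 208 and 231 CPM. The ratio of Mthfd2 to Mthfd1 in TPM was 1.84 in young TCR, 3.49 in young TRM and 3.07 in aged TRM. The columns of young TRM were 3.38 and 3.62 and those of aged TRM 3.31 and 2.86, so young TCR stood apart and the TRM samples came close. Mthfd1l, which releases formate from mitochondria, had 210, 198 and 204 CPM.

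**Figure D4:**
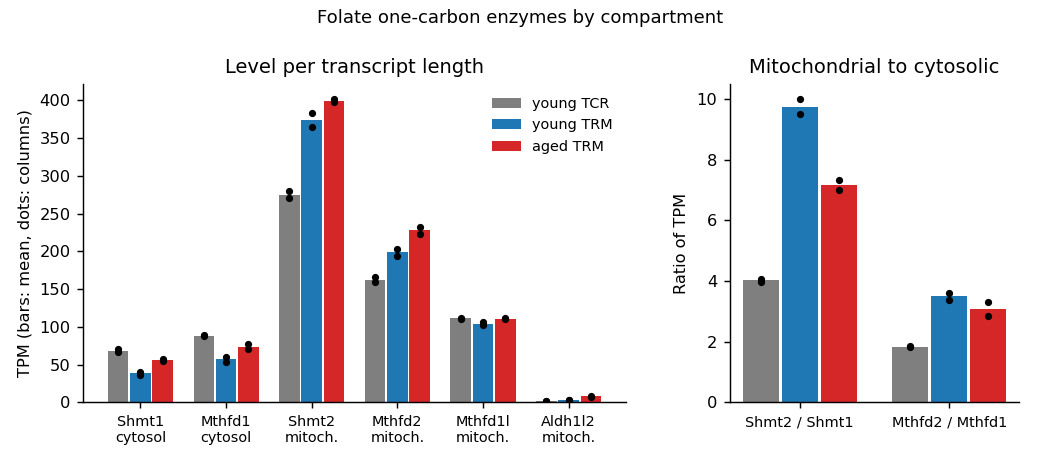
Left, TPM of 6 folate enzymes in each sample, with bars for the mean of the columns and dots for the columns. Right, ratio of mitochondrial to cytosolic partner in TPM, where Shmt2 over Shmt1 is 4.02, 9.72 and 7.16 and Mthfd2 over Mthfd1 is 1.84, 3.49 and 3.07 in young TCR, young TRM and aged TRM.

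Aldh1l2, a mitochondrial enzyme that oxidises formyl-folate and yields NADPH, was weakly expressed and rose with age. Its columns read 6.13 and 7.25 CPM in young TCR, 10.3 and 10.5 CPM in young TRM, and 23.2 and 26.6 CPM in aged TRM. It rose 2.40-fold from young TRM to aged TRM (2.12 to 2.71, log2 ratio 1.18), a call that ended with a pseudocount of 5 (0.96). Per transcript length it remained among the lowest members, at 2.16, 3.38 and 8.34 TPM. Aldh1l2 lies on chromosome 10, positions 83487447 to 83534146. Exons of D10Wsu102e on the opposite strand cover 14.1% of its exon bases, and that gene had 82.6, 87.1 and 76.4 CPM.

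Of the 5 tested enzymes of asparagine, alanine, proline and cysteine metabolism, Cth rose with age, beside 2.25% of tested genes. None rose or fell with the cytokines. Cth encodes cystathionine gamma-lyase, which releases cysteine. It had 37.2 and 35.3 CPM in young TCR, 26.3 and 31.6 CPM in young TRM, and 72.7 and 75 CPM in aged TRM. It rose 2.53-fold with age (2.35 to 2.71, log2 ratio 1.31), and aged TRM was also above young TCR in every column. Cth lies on chromosome 3, positions 157894248 to 157925081. Cbs, the enzyme before it in the same pathway, had 0.468, 0.142 and 0.148 CPM, from 19, 5 and 6 reads.

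Asns, which makes asparagine and is a well-known ATF4 target, had 208 and 199 CPM in young TCR, 218 and 210 CPM in young TRM, and 321 and 326 CPM in aged TRM. Aged TRM stood 1.51-fold above young TRM (1.47 to 1.56), a log2 ratio of 0.60 and below the threshold of 1, while the young samples were close, at 0.09. The proline enzymes and the alanine enzyme had the opposite order of differences. Aldh18a1, which starts proline synthesis, had 169, 236 and 247 CPM, Pycr1, which completes it in mitochondria, had 10.7, 16.4 and 16.4 CPM, and Gpt2, the mitochondrial alanine aminotransferase, had 27.7, 42.1 and 45.7 CPM. Their log2 ratios were between 0.48 and 0.59 with the cytokines and between 0.00 and 0.11 with age, all inside the threshold.

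Of the 9 transporters, Slc6a9 rose with the cytokines, beside 4.18% of tested genes, and none rose or fell with age. Slc6a9, the glycine transporter GlyT1, had 13.3 and 11.9 CPM in young TCR, 39.2 and 34.9 CPM in young TRM, and 35.6 and 35.7 CPM in aged TRM. It rose 2.96-fold (2.67 to 3.29, log2 ratio 1.49), and the TRM samples overlapped. Slc6a9 lies on chromosome 4, positions 117835258 to 117869305. Exons of Ccdc24 on the opposite strand cover 27.8% of its exon bases, and Ccdc24 had 8, 2 and 11 reads. Exons of Gm17114, also on the opposite strand, cover 9.94%. The part of these genes in the result was not tested.

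Summed over the 9 transporter genes, levels were 716 TPM in young TCR, 979 TPM in young TRM and 1069 TPM in aged TRM. Slc1a5, the glutamine and neutral amino acid carrier, was the most abundant per transcript length, with 199, 256 and 306 TPM. Slc7a5, the large neutral amino acid carrier LAT1, followed with 160, 241 and 255 TPM, and Slc3a2, the CD98 heavy chain with which it is joined, had 136, 191 and 206 TPM. The ratio of Slc7a5 to Slc3a2 in TPM was 1.18, 1.26 and 1.23, so the partners kept close to 1 proportion while both were higher in the TRM samples. Their log2 ratios of CPM with the cytokines were 0.59 and 0.49, and with age 0.04 and 0.05.

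Slc1a4, a carrier of serine and alanine, was the transporter nearest to the threshold after Slc6a9. It had 20.2 and 19.6 CPM in young TCR, 37.6 and 36.3 CPM in young TRM, and 42.7 and 43.0 CPM in aged TRM, a log2 ratio of 0.87 with the cytokines. Slc38a2, a glutamine and alanine carrier that is induced when amino acids are scarce, had 176, 276 and 233 CPM, with young TRM the highest and log2 ratios of 0.64 and -0.24. Slc38a1, its close relative, had 278, 260 and 292 CPM and was the transporter with a log2 ratio below 0 in the first comparison (-0.10). Slc7a1, which carries arginine and lysine, had 192, 229 and 257 CPM. Slc7a11, the cystine carrier, was the least abundant of the 9, with 0.77, 0.83 and 1.10 TPM, from 148, 139 and 206 reads.

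Genes around the programme were counted in the same way, where 4.18% of all tested genes rose and 3.6% fell with the cytokines, and 2.25% rose and 1.15% fell with age. The 12 genes of eIF2 kinases, eIF2 and eIF2B had no gene that rose or fell in either comparison, with medians of -0.25 and 0.15. In that list Eif2ak2, the kinase PKR that is also induced by interferon, had 60.1, 106 and 77.8 CPM, Eif2ak3, the endoplasmic reticulum kinase PERK, had 64.4, 38.4 and 49.7 CPM, and Eif2ak4, the amino acid sensor GCN2, had 30.8, 27.0 and 33.6 CPM. Of 16 genes of the other arms of the unfolded protein response none rose or fell, with medians of -0.12 and 0.16. Of 20 cytosolic aminoacyl-tRNA synthetases, which charge tRNAs and are in part ATF4 targets, 1 rose with the cytokines and none with age, with medians of 0.05 and 0.14. That gene, Wars, the tryptophan enzyme that interferon gamma also induces, had 129, 335 and 231 CPM.

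Among 17 other amino acid transporters tested, Sfxn3 rose with the cytokines, from 38.4 to 81.7 CPM, and had 53.9 CPM in aged TRM. Of 18 other folate and methionine cycle genes 1 fell, Gldc of the glycine cleavage system, from 2 to 0.142 CPM. Of 13 glutamine, glutamate and branched-chain enzymes tested 1 fell, the glutaminase gene Gls2, from 14.8 to 6.05 CPM, and the list's median was -0.40. In the glutathione and NRF2 list, 2 of 17 fell with the cytokines, Srxn1 (11.7 to 2.38 CPM) and Hmox1 (16 to 6.50 CPM), with a median of -0.35. Srxn1, which repairs oxidised peroxiredoxins, then rose to 10.4 CPM in aged TRM, the 1 gene of these companion lists that rose with age. No gene of these lists fell with age. Above 0 with age were 15 of 16 genes of the other unfolded protein response arms, 17 of 20 synthetases and 13 of 17 glutathione and NRF2 genes. Further counts were 13 of 18 folate and methionine cycle genes, 9 of 13 glutamine, glutamate and branched-chain enzymes and 8 of 12 eIF2 genes. Other amino acid transporters had 8 of 16, and 49.2% of all tested genes were above 0.

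Aged TRM and young TCR differ in age and in cytokines, so their values are only set side by side. Aldh1l2 had 25 CPM in aged TRM and 6.64 CPM in young TCR, Nupr1 8.73 and 2.12 CPM, Sesn2 51.2 and 17.5 CPM, Slc6a9 35.8 and 12.5 CPM, and Cth 74.2 and 36.0 CPM. Ddit3 had 17.1 and 18.0 CPM.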

How the data were processed

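RNA of 3 samples, 1 per group, was analysed. Per the submitters' processing notes, Bowtie (no version) and the mouse assembly GRCm38 (mm10) were used. The sources used here do not name the counting program, its annotation or its use of strand. For each gene and column the authors deposited estimated counts of reads, not always whole, and TPM. A further 24 value columns were not used here. Column totals were 16084855 to 20245228 reads after rounding.

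Estimated counts were rounded and the 2 columns of a sample summed. TMM factors came from edgeR 4.0.16 and the alternative size factors from DESeq2 1.42.0 in R 4.3.3. Ratios and intervals used scipy 1.17.1, pandas 2.3.3 and numpy 2.4.6 under Python 3.11.15. Column values used TMM factors over all 6 columns. The calling rule was run on simulated counts with counting error and a small added spread. They held no variation between mice or cultures, so the run says nothing about that variation. With 1 sample per group no test across genes was run. Alternatives were totals-only scaling, DESeq2 size factors, a pseudocount of 5, filters of 10 CPM or none, the authors' TPM and each column alone.

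The members and lists were chosen with earlier results of these data known. Every member may be named, and from each other list the called genes, at most the 4 largest per comparison. Eif2ak2, Eif2ak3, Eif2ak4, some cell markers (Cd2, Cd3e, Cd4, Cd79b, Klrk1, Adgre1) and the genes that overlap members were named after their values were seen. Gene positions come from RefSeq (GRCm38.p6), where 17071 gene IDs were found, and exon overlaps from GENCODE M21. Of the cell markers, 1 is not reported here.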

Additional observations from a re-analysis of the deposited data

How the results depend on the processing

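The count of members that rose kept within 1.5 times its value under all 8 alternatives in both comparisons, and no member fell under any of them. With a pseudocount of 5, Cebpb (0.85) and Aldh1l2 (0.96) were no longer called, and with column 1 alone Sesn2 (1.07) was. The median log2 ratio of the members stayed above 0 throughout. For young TRM against young TCR it was 0.37, and it was 0.32 with totals only, 0.32 with a pseudocount of 5, 0.33 with no filter, 0.30 with column 1 alone and 0.34 with column 2 alone. For aged TRM against young TRM it was 0.15, and it was 0.19 with totals only, 0.13 with a filter of 10 CPM, 0.13 with no filter, 0.19 with the authors' TPM and 0.12 with column 1 alone. The median of all tested genes moved with scaling by totals too, to -0.04 and 0.03. With the authors' TPM it moved to 0.04 in the age comparison, from -0.01. Without a filter Cbs was added, for 38 tested members, and with a filter of 10 CPM 36 members were tested. A larger pseudocount draws ratios toward 0 by construction. The cause of the remaining shifts was not tested. Members close to 0, such as Psat1, Psph, Cebpg, Trib3, Ddit4, Ppp1r15a, Pycr1, Slc7a5 and Slc6a9, changed sign under at least 1 alternative in 1 comparison, none of them in a comparison where it was called. No paired analysis was possible because each group has 1 sample. Leaving out a sample would end a comparison. Low counts limit Cbs, with 5 reads in young TRM.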
